A study of Rattus norvegicus with 74 samples.

Results

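Rpph1 is the gene of the RNA subunit of ribonuclease P (RNase P). It was taken by its symbol from the 3 deposited count tables and is 1 of the 30560 genes they hold, with the identifier ENSRNOG00000054493 and the class ribozyme. The same class holds 35 other entries, of which 1 is named RNase_MRP and 34 are named RNaseP_nuc. Those 34 are further annotated copies that resemble RNase P RNA, and reads of near-identical sequence may be divided among them and Rpph1, so counts on any single copy are uncertain.

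RNase P is the endonuclease that cuts the 5′ leader from precursor transfer RNAs (tRNAs). The nuclear enzyme is an RNA held by a set of proteins, most of which also sit on the related RNase MRP RNA, and both RNAs are made by RNA polymerase III from promoters that lie upstream of the transcribed part. Import of the RNase P RNA into mitochondria has been claimed and disputed, and vertebrate mitochondria also have a form of the enzyme made of protein alone, built from Trmt10c, Hsd17b10 and Prorp.

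The animals were male, wild-type Wistar Kyoto rats aged 9 weeks, all given drinking water with 8% (v/v) deuterium oxide and housed in pairs. Exercise-trained rats (ExT) ran on a treadmill from the age of 5 weeks for 4 weeks, 5 days a week, in sessions lengthened from 20 to 60 min at 15 and later 20 m/min, and were sampled 24 h after the last session, while sedentary rats (Sed) were placed on a treadmill with its belt at rest. RNA came from red gastrocnemius muscle (SM, 15 Sed and 15 ExT), from mitochondria isolated from that muscle of the same 30 rats (MT, 15 and 15), and from the left ventricle of 14 of them (LV, 7 and 7). The mitochondria were captured with antibodies and treated with RNase A and proteinase K before RNA was extracted. MT libraries were made from 10 ng of RNA, SM libraries from 50 ng with the same kit, and LV libraries from 100 ng with a different kit, so LV and SM cannot be told apart from their kits and inputs, nor MT and SM from their inputs.

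Totals were 19477976 to 39401323 counts in SM, 54645657 to 75758777 in LV and 530397 to 9988027 in MT. The shares on the 37 genes of the mitochondrial genome were 22.1 to 35.9% in SM, 39.9 to 50.7% in LV and 12.9 to 95.4% in MT, so levels are given below as nuclear CPM, the counts per 1000000 counts on the 30523 nuclear-encoded genes. The 10 cardiac markers summed to 64716 to 79339 nuclear CPM in LV and the 8 skeletal muscle markers with a row to 123459 to 188953 nuclear CPM in SM. Fast-fibre Myh4 had a median of 0.0264 nuclear CPM in LV and atrial Nppa a median of 0 in SM. Other markers were shared by both tissues. Ckm had a median of 1717 and Acta1 of 1260 in LV, where the other skeletal markers had at most 2.84. Myl3 had a median of 1265 and Myl2 of 650 in SM, where the other cardiac markers had at most 35.2. Across LV libraries Nppa ran from 34.6 to 1797 and Myl7 from 0.611 to 1193. In MT, genes that whole muscle barely transcribes also had counts: Nppa had a median of 15.3 nuclear CPM, and the 1260 odorant and vomeronasal receptor genes summed to 13670 to 19790 nuclear CPM, against 7.66 to 15.8 in SM.

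No promoter entry of Rpph1 is in the RefSeq promoter table used here, but the gene lies head to head with Parp2, an enzyme of the DNA damage response, and the promoter window of Parp2 spans the interval that both genes share. It is printed because this interval holds the upstream promoter of Rpph1, read here on the Parp2 strand (RefSeq, build GRCr8, chr15:26507409-26507708, plus strand), so that Rpph1 is transcribed leftwards from it. The first 80 bases, in capitals, lie inside RefSeq's 257-base Rpph1 entry, followed by 170 bases up to the annotated start of Parp2 and 50 bases beyond it. The second block in capitals, bases 197 to 204, is the octamer ATTTGCAT.

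Parp2 window: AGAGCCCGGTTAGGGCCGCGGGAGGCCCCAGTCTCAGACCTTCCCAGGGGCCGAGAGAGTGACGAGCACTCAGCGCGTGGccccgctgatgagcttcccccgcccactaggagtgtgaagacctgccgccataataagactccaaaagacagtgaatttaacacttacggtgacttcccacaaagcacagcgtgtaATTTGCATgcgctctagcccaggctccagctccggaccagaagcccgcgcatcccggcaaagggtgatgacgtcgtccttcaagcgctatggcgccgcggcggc

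The octamer is the core letters recognised by Pou2f1, a factor that acts at upstream elements of RNA polymerase III promoters of this kind. It occurs once in the window, and 595 of the 33469 promoter windows of this length (1.78%) hold it on either strand. RefSeq's entry under the symbol Rpph1 carries the class RNase_MRP_RNA and the synonyms Rmrp and Rmrp1, which belong to the RNase MRP RNA, so the 2 sources name these RNAs differently and the values below are those of the row named Rpph1 in the deposited tables.

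Rpph1 was abundant in both whole tissues. In SM of sedentary rats it had 4113 ± 1427 nuclear CPM (mean ± SD, n = 15), with the lowest library at 2514, the median at 3949 and the highest at 6915. Trained SM had 3181 ± 750 (n = 15), from 1852 through a median of 3184 to 5028. The sedentary LV libraries held 3105, 3180, 3505, 3688, 4142, 4157 and 4329 nuclear CPM, or 3729 ± 492.8 (SD, n = 7). Those of trained LV held 2166, 3236, 3262, 3283, 3350, 4360 and 4883 nuclear CPM, or 3506 ± 878 (SD, n = 7). The 4 whole-tissue groups overlapped, and Rpph1 took 0.185 to 0.691% of nuclear-encoded counts in SM and 0.217 to 0.488% in LV.

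MT held far less. Sedentary MT libraries had 122 ± 156 nuclear CPM (SD, n = 15), from 17.4 through a median of 73.9 to 640, and trained MT libraries 126 ± 162 (SD, n = 15), from 16.98 through a median of 51.8 to 536. By the mean the order was sedentary SM, sedentary LV, trained LV, trained SM, trained MT and sedentary MT. Neighbours among the first 4 differed by less than 1 SD of the larger spread, as did the MT arms, and the step between the whole tissues and MT was the only one with no overlap. The MT values rest on 8 to 415 Rpph1 counts a library, far fewer than the 43430 to 124048 of SM or the 88786 to 186225 of LV. For the MT library with the fewest counts (ExT, rat 9) the 95% Wilson interval was 8.605 to 33.5 nuclear CPM around 16.98, and such intervals cover counting error only.

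**Figure D1:**
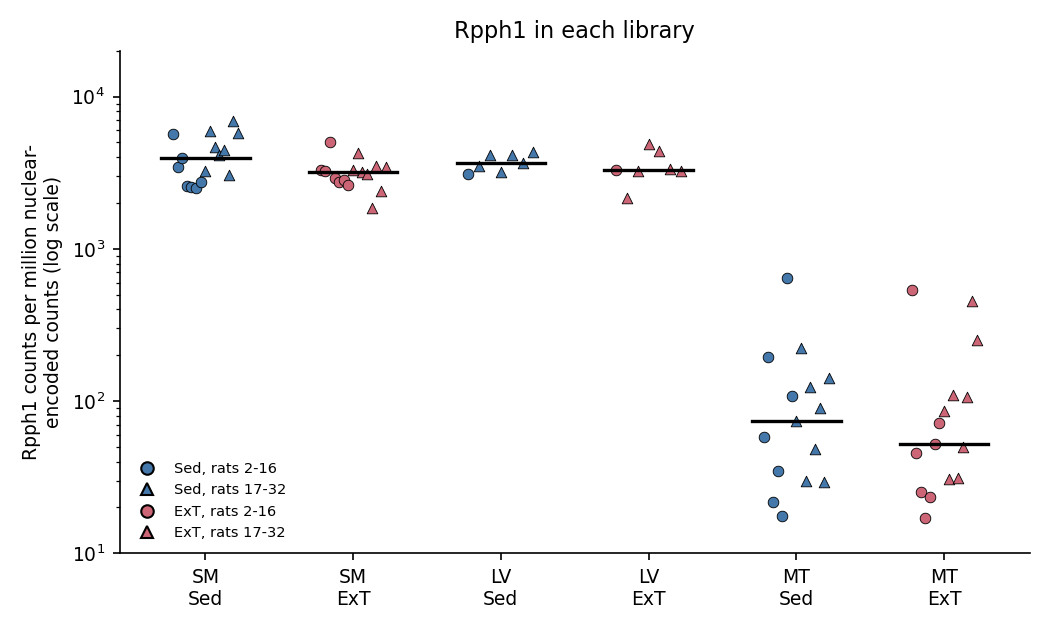
Rpph1 in nuclear CPM (log axis) in each of the 74 libraries, by tissue and arm, with circles for rats 2 to 16, triangles for rats 17 to 32 and a bar at the median of each group. The SM and LV libraries lie between 1852 and 6915 nuclear CPM and every MT library lies at or under 640.

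The first comparison asked how much Rpph1 the mitochondrial fraction holds beside the muscle it came from. Rpph1 was lower in MT than in SM of the same rat in 15 of 15 sedentary and 15 of 15 trained rats, by 3.93 to 235 times in the sedentary (median 43.9) and 5.22 to 201 times in the trained (median 38.3). The highest sedentary MT library (640) lay under the lowest sedentary SM library (2514). Such a gap, every MT library under every SM library, was seen in 4.41% of the genes with a count in the sedentary libraries and in 4.66% in the trained. In the fit across all genes the log2 fold change of Rpph1, MT minus SM, was -7.18 (SE 0.48, edgeR quasi-likelihood adjusted p = 9.57e-15) in sedentary and -6.69 (SE 0.49, adjusted p = 1.03e-13) in trained rats. Called lower were 33.1% of the 22842 genes tested in the sedentary and 35.0% of the 21312 in the trained, and called higher 61.7% and 59.3%, so a call alone says little here and the size is given beside it. The median gene moved by 1.81 and 1.31, which puts Rpph1 8.99 and 8.00 below it, and 49 and 66 of the genes tested had a lower fold change. How far a gene can fall depends on its level in SM, and genes were not matched by that level. The 8 skeletal muscle markers, also abundant in SM, had medians of -9.46 and -9.03.

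Scaling decides how far Rpph1 falls but not the direction in any fit made. Per 1000000 mitochondrial-genome counts, Rpph1 had 4450 to 16787 in SM and 25.7 to 214 in MT, lower in MT in all 30 rats by a median of 105 times in sedentary and 98.3 times in trained. Set against the 8 skeletal muscle markers, whose RNA lies outside mitochondria, the order turned. Rpph1 came to 1.25 to 4.98% of their summed counts in SM and to 1.79 to 22.7% in MT, and the ratio was higher in MT in 14 of 15 sedentary and 14 of 15 trained rats, with medians of 3.16 and 4.06 times. All 8 of those markers were called lower in MT, with a median log2 change of -9.46 in sedentary and -9.03 in trained rats, further down than Rpph1. None of the other cell types' marker sets had a median as low as Rpph1. The fibroblast markers had -4.63 and -3.69 and the endothelial markers -2.05 and -2.28. The turn is thus given for the skeletal markers alone, and no ratio to the other sets was formed. The counts on genes that muscle barely transcribes, given above, bear on the marker sum as well as on Rpph1, and their part in this ratio was not tested.

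The protein genes of the same enzyme went in both directions. Of 12 entries for RNase P and MRP proteins, 10 were tested in sedentary rats, with 5 called higher in MT and 4 lower, beside 61.7% and 33.1% of all genes. Their median log2 change of 0.36 lay under the 1.81 of all genes, and their difference from Rpph1 was not tested. Pop1, the largest protein of the complex, was higher by 2.56 (SE 0.11, edgeR adjusted p = 5.3e-27), while Pop5, a conserved core protein, was lower by -1.20 (SE 0.10, adjusted p = 8.2e-16). In trained rats 9 were tested, with 4 higher and 4 lower, beside 59.3% and 35.0% of all genes. The genes of mitochondrial tRNA processing were called lower, 6 of 6 in each arm with medians of -1.27 and -1.16, beside 33.1% and 35.0% of all genes. The filter on low counts kept 6 of them in SM alone and 5, without Hsd17b10, in MT alone. Among the members of the protein-only RNase P, Trmt10c had -1.28 (SE 0.11) and Prorp -0.26 (SE 0.09) in sedentary rats. Hsd17b10 had -5.05 (SE 0.12). It entered through SM, where it is high, so its call is no result, and the medians include it. These are messenger RNAs, and the proteins they encode were not measured. The part that the MT counts on genes muscle barely transcribes, given above, have in these changes was not tested. Of the 22 mitochondrial tRNAs, substrates of that enzyme, 9 were tested in each arm. Called higher were 8 in sedentary and 9 in trained rats, beside 61.7% and 59.3% of all genes, with medians of 3.35 and 3.59. The filter kept 7 of the 22 in SM alone and 8 in MT alone, so some may have entered through MT, where they are high. Their counts and medians are no result about the tRNAs as a group.

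Of the other small RNAs of the cytoplasm and nucleus that were tested, none had as low a fold change as Rpph1. In sedentary rats 24 of 1048 entries for other small RNAs (RNase MRP, signal recognition particle, Y, vault, 5S, U6 and RNaseP_nuc among them) passed the filter on low counts, with 20 called lower, 4 higher and a median of -3.13. The filter kept 23 entries in SM alone and 4 in MT alone, so most entered through SM, where they are high, and their count and median are no result about these RNAs as a group. RNase_MRP, which cuts precursor ribosomal RNA, had -4.66 (SE 0.46) in sedentary and -5.20 (SE 0.31) in trained rats. The lowest entry was a Y_RNA, a component of Ro particles, at -6.38 (SE 0.39) and -6.43 (SE 0.33). The 4 called higher were 3 RNaseP_nuc copies and 1 Metazoa_SRP copy. Those 3 RNaseP_nuc copies passed the filter through MT, where they are high, so their calls are no result about the copies. The filter kept 14 Metazoa_SRP copies in SM alone and 15 in this fit, so the 1 called higher may have entered through MT as well. In trained rats, with 20 tested, 17 were lower and none higher. There 0 of the 34 RNaseP_nuc copies passed the filter, so the arms cannot be compared on them. Whether Rpph1 differed from any of these RNAs was not tested across genes. Parp2, on the other side of the shared promoter interval, was called higher in MT, by 0.71 (SE 0.09) and 0.88 (SE 0.10), which is less than the median gene moved. Of 21 entries for RNA polymerase III and the factors that start and control it, 13 were called lower and 7 higher in sedentary rats, and 10 and 8 in trained rats, where the shares of all genes were 33.1% and 61.7%, and 35.0% and 59.3%. The La protein Ssb, which binds new RNA polymerase III transcripts, had -3.08 (SE 0.10) and -3.07 (SE 0.11).

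**Figure D2:**
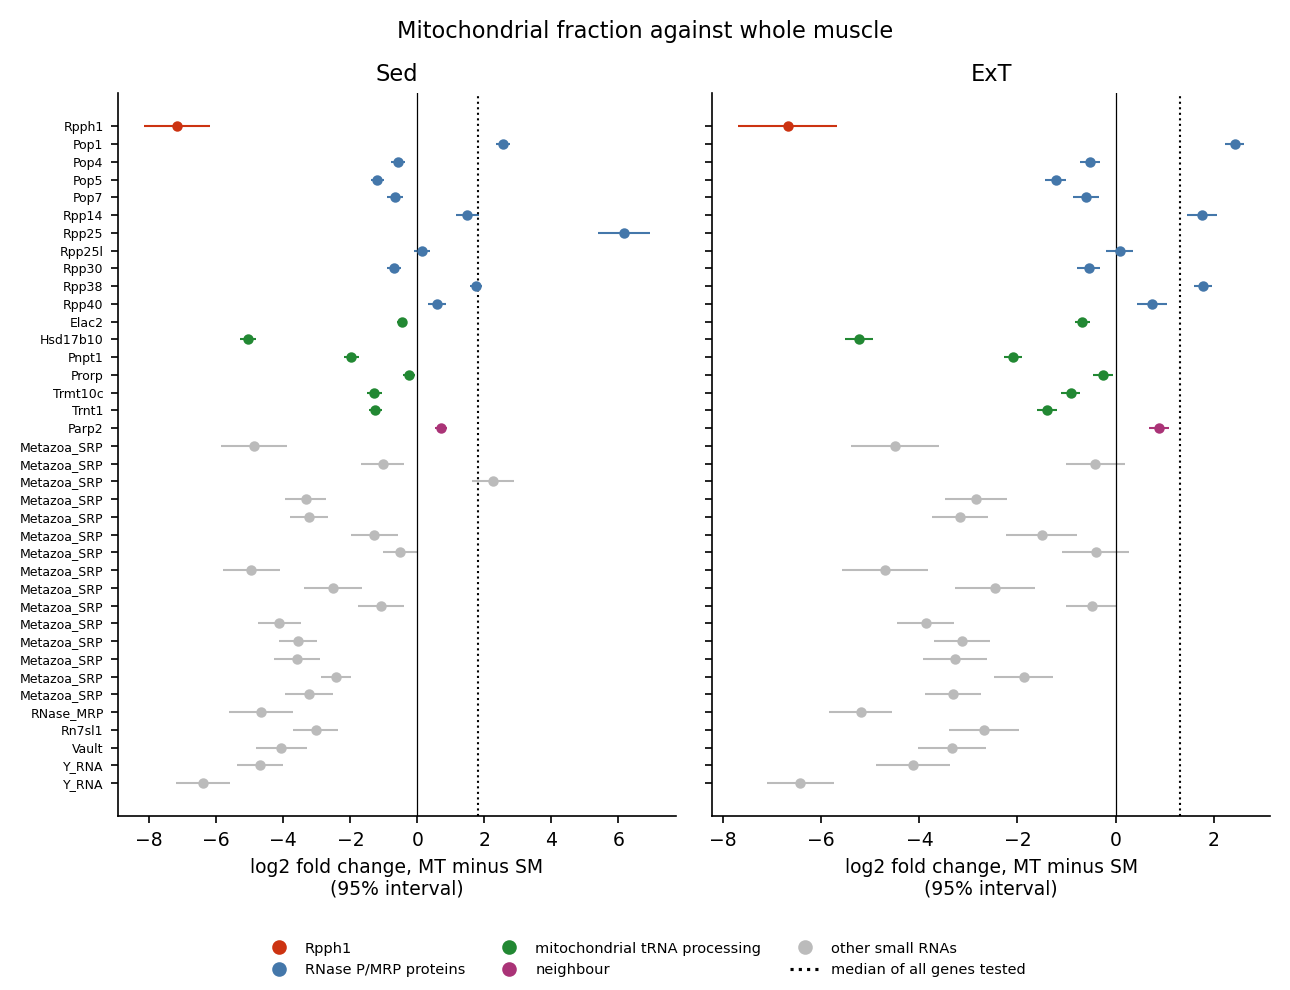
Log2 fold changes, MT minus SM, with 95% intervals from the edgeR fits for Rpph1, the RNase P and MRP protein genes, the mitochondrial tRNA processing genes, Parp2 and other small RNAs, in sedentary (left) and trained rats (right), each row 1 gene and the dotted line the median of all genes tested. Rpph1, at -7.18 and -6.69, lies to the left of every other gene drawn.

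In whole tissue nearly all counts of the RNase P RNA family fell on Rpph1, and in MT they did not. Rpph1 held 99.97% of the family's counts in SM, 99.73% in LV and 50.3% in MT, where 2523 counts fell on Rpph1 and 2495 on the 34 RNaseP_nuc copies. Per library the Rpph1 share ran from 11.1 to 88.9% in sedentary and from 15.4 to 85.1% in trained MT, and was at least 99.6% in every SM and LV library. All 34 copies had counts in MT, against 13 in SM and 10 in LV, and no copy reached more than 13 counts in any MT library. The copies together had 80.2 to 149 nuclear CPM in MT, a range of 1.86 times, while Rpph1 varied 37.7-fold over the same libraries. Rpph1 stayed above every single copy in 30 of 30 MT libraries, at 4.25 to 271 times the mean copy. The odorant and vomeronasal receptor genes were even in the same way, varying 1.45-fold. Of the 5064 copy counts in LV, ENSRNOG00000059490 had 2533 and ENSRNOG00000053929 had 2429, and both passed the filter on low counts in LV and not in SM, so no test of their difference is given.

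**Figure D3:**
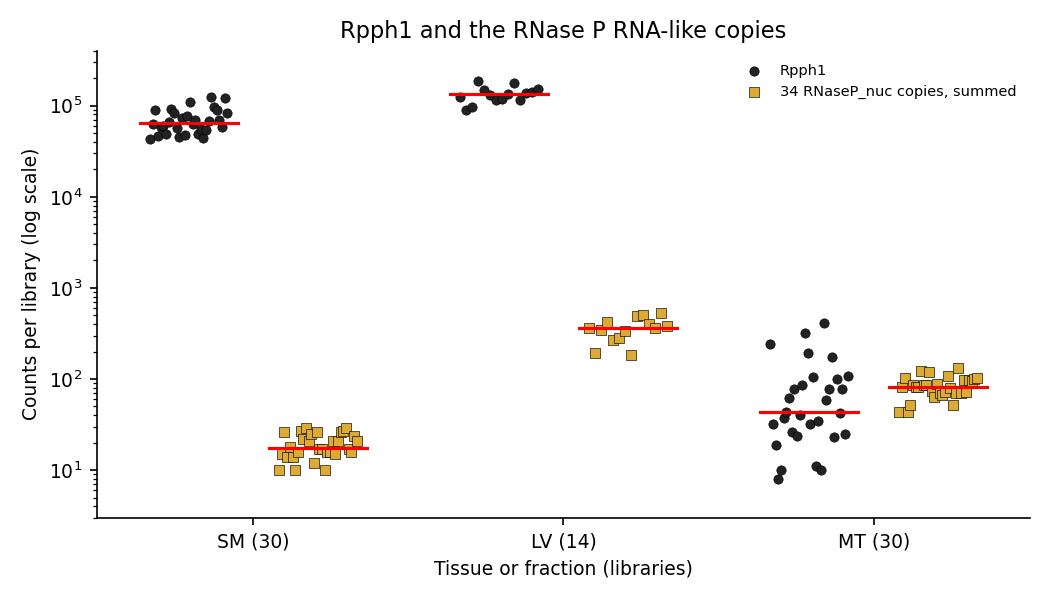
Counts per library (log axis) of Rpph1 and of the 34 RNaseP_nuc copies summed, in SM, LV and MT, with 1 point a library and a bar at the median. Rpph1 exceeds the copies by more than 2 orders of magnitude in SM and LV, while in MT it runs from 8 to 415 counts around copies that stay between 43 and 131.

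Among the 30 MT libraries the Rpph1 level moved with how much mitochondrial RNA and how much muscle fibre RNA a library held. Against the percent of counts on the mitochondrial genome, Pearson's r of the log2 Rpph1 level was 0.89 and Spearman's rho 0.86 (n = 30, permutation p = 1e-05, the smallest that 100000 resamples can give, adjusted p = 2.5e-05 over 5 relations). It was 0.86 without the 2 libraries farthest from the median, 0.88 in Sed, 0.90 in ExT, 0.96 in rats 2 to 16 and 0.80 in rats 17 to 32. Against the summed skeletal muscle markers r was 0.88 and rho 0.81 (n = 30, permutation p = 1e-05, adjusted p = 2.5e-05). It was 0.81 without the 2 farthest libraries, 0.88 in Sed, 0.89 in ExT and 0.93 in rats 17 to 32. In rats 2 to 16 it was 0.84, and 0.40 without the 2 farthest, so within that range the relation rests on those libraries. In each pair both measures come from 1 library, and the level of Rpph1 falls by construction with the nuclear-encoded total that also enters the other measure.

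The libraries with the most Rpph1 show both relations. The MT library of sedentary rat 15 had 640 nuclear CPM of Rpph1, 92.2% of its counts on the mitochondrial genome and 2965 nuclear CPM on the skeletal markers. That of trained rat 2 had 536 with 95.4% and 2776, and that of trained rat 27 had 456 with 90.6% and 2289. At the low end trained rat 9 had 16.98 with 18.98% and 947, and sedentary rat 12 had 17.4 with 20.3% and 638. Per 1000000 of all counts, mitochondrial ones included, the MT libraries lay much closer, between 13.8 and 61.4. Over all 30 libraries no relation passed with the summed odorant and vomeronasal receptor genes (r = 0.10, rho = 0.21, permutation adjusted p = 0.784 for r and 0.432 for rho). The r was 0.29 without the 2 farthest, 0.05 in Sed and 0.26 in ExT. It differed in sign between the rat ranges, with r = -0.31 and rho = -0.50 in rats 2 to 16 (n = 14, permutation adjusted p = 0.365 and 0.0916). In rats 17 to 32 r was 0.47 and rho 0.59 (n = 16, permutation adjusted p = 0.11 and 0.0283), so that the rank correlation passed there and Pearson's r did not. No relation was found with Rpph1 in SM of the same rat either (r = -0.09, rho = -0.03, n = 30, permutation adjusted p = 0.784 for r), nor within Sed (-0.09), ExT (-0.15), rats 2 to 16 (-0.13) or rats 17 to 32 (-0.17), and r was -0.11 without the 2 farthest.

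**Figure D4:**
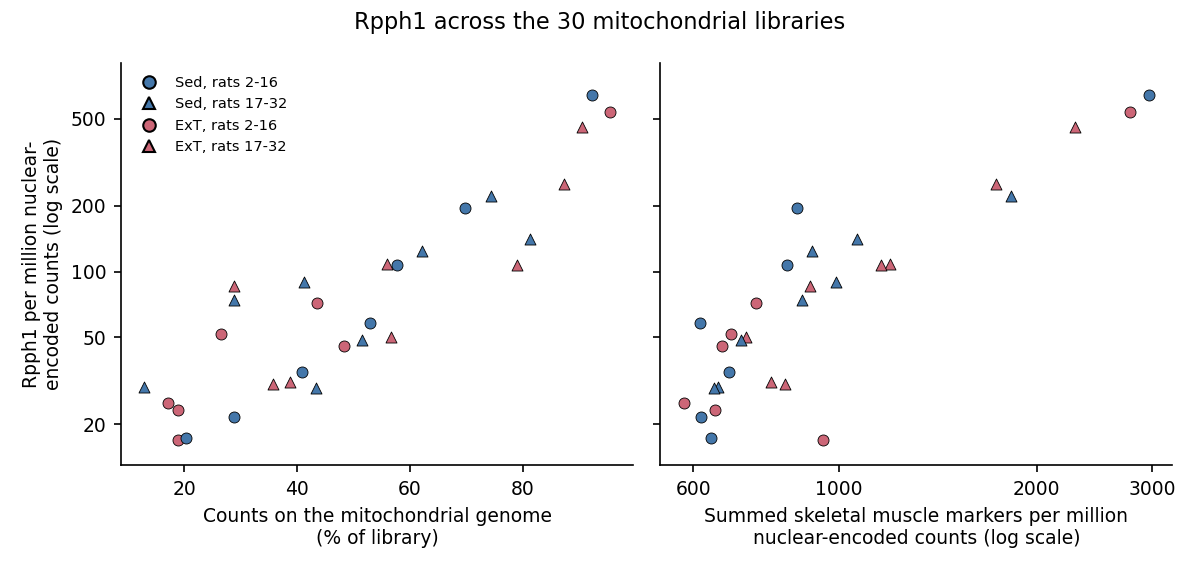
Rpph1 in nuclear CPM (log axis) in the 30 MT libraries against the percent of counts on the mitochondrial genome (left) and against the summed skeletal muscle markers in nuclear CPM (right, log axis), with 1 point a library. The 3 highest points, at 640, 536 and 456, lie at over 90% mitochondrial-genome counts and at the 3 highest marker sums.

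RNase_MRP gave a ratio that needs no library total. The ratio compares libraries and not the 2 RNAs, since lengths are not accounted for. Rpph1 had 3.02 to 7.55 counts for each RNase_MRP count in SM and 4.09 to 5.33 in LV, but 0.242 to 14.4 in MT. Within a rat it was lower in MT in 12 of 15 sedentary and 13 of 15 trained rats. RNase_MRP fell to 5.98 nuclear CPM in sedentary MT of rats 2 to 16, so some MT ratios rest on few counts. By rat number the MT medians of the ratio differed: sedentary rats 2 to 16 had 1.00 to 7.38 with a median of 4.00, and sedentary rats 17 to 32 had 0.423 to 1.79 with a median of 0.558. By the mean log2 ratio, which the test compares in place of the medians, the later sedentary rats had 0.227 times as much. The exact permutation p was 0.0034 (adjusted p = 0.0564 over 33 comparisons of this kind). In trained rats the medians were 3.14 and 0.908. By the mean log2 ratio the later trained rats had 0.422 times as much (exact permutation p = 0.157, adjusted p = 0.471). Rpph1 itself was 1.05 times as high in later as in earlier sedentary MT by the mean log2 level (exact permutation p = 0.934) and 1.82 times in trained MT (exact permutation p = 0.287). RNase_MRP was 4.62 times as high in later sedentary MT (exact permutation p = 0.0255, adjusted p = 0.185) and 4.32 times in trained MT (exact permutation p = 0.00155, adjusted p = 0.0513). None of these passed the adjusted threshold of 0.05. The labels give rat numbers and no batch.

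Training was compared next within each tissue. In SM Rpph1 was lower in the trained arm by 932 nuclear CPM, 22.7% of the sedentary mean, a difference that did not pass after adjustment over the 3 tissues (permutation p = 0.0331, adjusted p = 0.0992). The arms overlapped over most of their range. In the fit across all genes the log2 change was -0.43 (SE 0.15, 95% interval -0.73 to -0.13, edgeR adjusted p = 0.188), and 28 of 13570 genes (0.206%) were called. Beside it, the skeletal muscle markers summed to 155026 nuclear CPM in Sed and 145561 in ExT, with 7 of 8 negative, a median log2 change of -0.20 and none called. The mitochondrial-genome share had means of 30.1% and 32.4%, and of the other cell types' markers none was called: Schwann cell (4 of 4 positive, median 0.52), endothelial (5 of 5 positive, 0.20) and blood (2 of 2 positive, 0.28) markers leaned up, and fibroblast (5 of 5 negative, -0.18) and leukocyte (4 of 4 negative, -0.26) markers leaned down, with 1 of 4 adipocyte markers tested (-0.78). The part of these in the Rpph1 difference was not tested, and in bulk tissue fewer cells of a type and less RNA per cell cannot be told apart.

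Split by rat number, the SM difference was larger in the rats with the higher numbers, though a difference between the ranges was not shown. In rats 17 to 32, sedentary libraries had 4778 ± 1359 (SD, n = 8) and trained ones 3132 ± 733 (SD, n = 8), lower by 34.4% of the sedentary mean (exact permutation p = 0.00979, adjusted p = 0.0294). That adjustment took in the MT and LV tests over all rats and made no allowance for the choice of range. In rats 2 to 16 they had 3353 ± 1154 (SD, n = 7) and 3237 ± 824 (SD, n = 7), a difference of -116 (exact permutation p = 0.815). By the mean log2 level the trained arms of both ranges lay close, at 0.963 times in later as against earlier rats. Sedentary SM was 1.43 times as high in later rats by the same measure (exact permutation p = 0.0385, adjusted p = 0.185 over 33 comparisons). Fitted as a difference of training effects between the ranges, the log2 value was -0.47 (SE 0.29, edgeR adjusted p = 0.498, with 0% of 14033 genes called and 1803 at an unadjusted p under 0.05), so the ranges were not shown to differ. Within rats 17 to 32 alone the edgeR log2 change was -0.63 (SE 0.17, adjusted p = 0.687), and within rats 2 to 16 -0.16 (SE 0.21, adjusted p = 0.678).

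**Figure D5:**
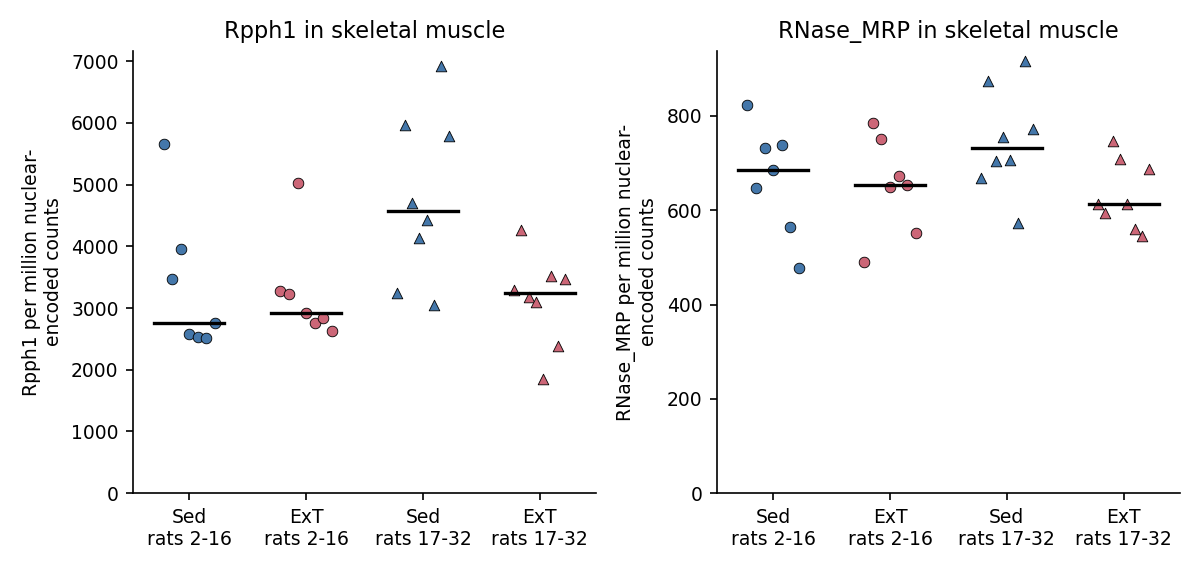
Rpph1 (left) and RNase_MRP (right) in nuclear CPM in SM, split by arm and by rats 2 to 16 and rats 17 to 32, with 1 point a library and a bar at the median, both axes starting at 0. Sedentary rats 17 to 32 reach 6915 for Rpph1 and trained rats 2 to 16 reach 5028, and the sets overlap. The 3 sets other than sedentary rats 17 to 32 have medians between 2765 and 3241.

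RNase_MRP leaned the same way in SM, at 709 ± 116 in Sed and 642 ± 85.0 in ExT (SD, n = 15 each). By the mean log2 level it was 0.909 times as high in trained rats (permutation p = 0.101, adjusted p = 0.370). Of the small RNA entries 23 passed the filter in SM and 22 had a negative log2 change, with a median of -0.27 against -0.01 for all genes, and none was called. In LV 17 of the 19 tested were negative with a median of -0.27, none called. Many of these entries are copies that share reads and are not independent. The RNase P and MRP protein genes had a median of -0.09 in SM, 6 of 9 negative and none called, with Rpp40, a protein of the complex, at -0.20 (SE 0.09) and Pop1 at 0.06 (SE 0.10). None of the 21 RNA polymerase III genes was called either (median -0.03). Parp2 did not move with Rpph1, at -0.02 (SE 0.06) on the log2 scale.

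In LV no training difference was found. Rpph1 differed by -224 nuclear CPM (exact permutation p = 0.574, adjusted p = 0.861) and by -0.04 on the log2 scale (SE 0.14, 95% interval -0.34 to 0.25, edgeR adjusted p = 0.98), with 0% of 14488 genes called and 855 at an unadjusted p under 0.05. DESeq2 called 0 as well. The ratio to RNase_MRP was tight in LV, at 4.45 ± 0.233 in Sed and 4.68 ± 0.425 in ExT (SD, n = 7 each), 1.05 times as high in trained rats (exact permutation p = 0.247). In MT the difference was 3.88 nuclear CPM (permutation p = 0.956) and 0.04 on the log2 scale, with an interval of -1.09 to 1.17 that allows more than a doubling or a halving (SE 0.55, edgeR adjusted p = 1.00). There 0% of 19281 genes were called, with 912 at an unadjusted p under 0.05 and 0 by DESeq2. The MT sign was not stable, turning in 11 of the 30 fits that left out 1 library: it was negative without trained rat 2 (-0.28) or trained rat 27 (-0.30), and in rats 2 to 16 (-0.60), and positive in rats 17 to 32 (0.58).

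Differences between the training effects were tested directly. MT minus SM was 0.44 (SE 0.55, edgeR adjusted p = 0.926, with 0.0181% of 27684 genes called). LV minus SM, over the 14 rats with both, was 0.58 (SE 0.27, adjusted p = 1.00, with 0% of 15049 genes called, 687 at an unadjusted p under 0.05 and 3 by DESeq2). Later minus earlier rats in MT was 1.19 (SE 1.14, adjusted p = 0.999, with 0% of 21400 genes called, 878 at an unadjusted p under 0.05 and 0 by DESeq2), and 0.17 (SE 0.77, adjusted p = 0.854) when scaled by library totals alone.

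Heart was compared with muscle in the 14 rats that gave both. In sedentary rats Rpph1 was lower in LV, with a log2 change of -0.85 (SE 0.17, edgeR adjusted p = 0.000201), and in trained rats it was -0.29 (SE 0.19, adjusted p = 0.153). The arms were not shown to differ, since that is the difference of 0.58 just given. Of 14367 genes in the sedentary fit 38.6% were called lower and 40.0% higher, and of 14338 in the trained fit 39.5% and 39.7%, so a call in either direction was common. These fits put the median gene near 0 (0.04 and 0.01). In nuclear CPM the median gene was higher in LV by 0.60 and 0.51 on the log2 scale, Rpph1 had 3729 in LV and 4595 in SM of the 7 sedentary rats and 3506 and 3059 of the 7 trained rats, and the sign in trained rats flipped (-0.30 and 0.20). Relative to the median gene both scales gave like values, -0.89 and -0.90 in sedentary and -0.31 and -0.31 in trained rats. Rat by rat, LV had 0.533 to 1.36 times the SM level in sedentary rats, lower in 4 of 7, and 0.657 to 2.64 times in trained rats, lower in 3 of 7. Levels in the same rat's LV and SM were not related (r = 0.05, rho = 0.06, n = 14, permutation adjusted p = 0.864 for r, r = 0.37 without the 2 farthest).

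Genes of both RNase P enzymes were set beside Rpph1 between heart and muscle. Of the 6 mitochondrial tRNA processing genes 5, all but Elac2, were called higher in LV in each arm, with medians of 0.56 and 0.68, Trnt1, which adds the CCA end to tRNAs, at 1.00 (SE 0.08) and Trmt10c at 0.71 (SE 0.10) in sedentary rats. The RNase P and MRP protein genes went both ways, 4 higher and 5 lower of 10 tested in sedentary rats and 3 and 4 in trained rats, which is near the shares of all genes (40.0% and 38.6%, and 39.7% and 39.5%). Rpp40 was lower in LV of sedentary rats, at -1.23 (SE 0.14). RNase_MRP was called lower in LV of sedentary rats, by -0.31 (SE 0.12, edgeR adjusted p = 0.024), and had -0.17 (SE 0.11, adjusted p = 0.17) in trained rats.

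The genes whose SM pattern was most like that of Rpph1 were found by the correlation, over the 30 SM libraries, of log2 levels after the mean of each arm and rat range was taken away, among 8556 genes with a mean of at least 5 CPM. The 5 highest were Cep170, a centrosome protein (r = 0.73), the ribosomal proteins Rpl22 (0.68) and Rps28 (0.68), Cdc123, an assembly factor of translation initiation (0.67), and Azin1, which relieves the block on polyamine synthesis (0.65). All of these share their libraries and totals with Rpph1. In the 14 LV libraries the same measure gave 0.11 for Cep170, 0.59 for Rpl22, 0.65 for Rps28, 0.35 for Cdc123 and -0.51 for Azin1. RNase_MRP ranked 18 in SM with 0.60 and had 0.93 in LV, and Parp2 had -0.10 and 0.02.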

How the data were processed

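Per the submitters' processing notes, reads were trimmed with cutadapt 4.6, checked with FastQC 0.74, aligned with STAR 2.7.11a to build mRatBN7.2 and counted with HTSeq. The annotation release, the counting mode and the strand setting are not given in the sources used here, so reads shared with antisense or overlapping genes could not be separated. The deposited values are whole-number counts per gene, and none was left out. The members and gene lists were chosen with earlier results of these data known. So was the split into rats 2 to 16 and rats 17 to 32.

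Each comparison was fitted over all genes that passed filterByExpr, with TMM scaling and quasi-likelihood testing in edgeR 4.0.16 (limma 3.58.1, R 4.3.3) and Benjamini-Hochberg adjustment, called at an adjusted p under 0.05. The fitting script was tested on simulated data. Per-library levels were compared by 2-sided permutation tests (exact below 10 libraries a group, otherwise 100000 resamples, scipy 1.17.1). Relations used log2 levels with no pseudocount, since no library was at 0, and the log2 alternative of the level comparison used a pseudocount of 1. DESeq2 1.42.0 and the other alternatives are in the closing section. Libraries of a rat share its number in the labels, so MT and SM, and LV and SM, come in pairs from an animal, and no relation of Rpph1 within rats was found (r = -0.09 and 0.05). The rat-by-rat ratios use these pairs. The fits do not, and the closing section gives them with the replicate block. No 2 libraries matched within sampling noise (smallest chi-square per degree of freedom 1.20).

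Genes named are Rpph1, the members of the fixed lists (RNase P and MRP proteins, mitochondrial tRNA processing, RNA polymerase III, small RNAs, Parp2, markers) and the 5 genes most like Rpph1 in SM. Scaling to mitochondrial-genome counts, the fits without the MT library of the largest total, and the ratios to RNase_MRP, to the copies and to the markers were added after the data were seen. Counts from deeper libraries are more precise, and Rpph1 counts in MT are few. The table's coordinates of Rpph1 were not used here, because no genome of build mRatBN7.2 was in hand.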

Additional observations from a re-analysis of the deposited data

Results flagged for a closer look

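Within the 4 SM and 4 MT sets formed by arm and rat range, and in the 2 LV groups, 50 combinations of set and measure were checked for a single library far from the rest, and 8 had one. The limit used is Dixon's 95% critical value, which chance passes in about 1 in 20 independent, normally distributed sets. The sets here share libraries and denominators and their levels are skewed, so their own chance rate is not known. The MT libraries of trained rat 2 and sedentary rat 15 were also those with the largest totals, with 95.4 and 92.2% of counts on the mitochondrial genome. In nuclear CPM (counts per 1000000 counts on nuclear-encoded genes), Rpph1 was 536 in trained rat 2, with the next of its 7 rats at 71.6, and 640 in sedentary rat 15, with the next at 195. RNase_MRP was 369 in sedentary rat 15, with the next at 27.9, and 526.1 in sedentary rat 20, with the next of its 8 rats at 209. Rpph1 per 1000000 mitochondrial-genome counts was 214 in trained rat 17, with the next at 85.7. In SM, trained rat 6 had 5028 nuclear CPM of Rpph1, with the next of its 7 rats at 3270, and 10465 per 1000000 mitochondrial-genome counts, with the next at 7009. Parp2 had 10.0 nuclear CPM in SM of trained rat 5, with the next at 7.73. No cause of these was tested.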

How the results depend on the processing

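The MT minus SM change of Rpph1 stayed negative and past the threshold in each of 11 alternatives an arm, from -7.76 to -5.70 in sedentary and from -7.38 to -5.02 in trained rats. The ends nearest 0 are those of libraries thinned to the smallest total (adjusted p = 4.13e-11 and 3.00e-45). With the rat as a replicate block the values were -7.73 and -7.38 for MT minus SM, -0.79 and -0.29 for LV minus SM, and 0.32 and 0.52 for the training effects in MT and LV minus SM, and the block changed no call. Without the MT library of the largest total the values were -7.76 and -7.13, and scaled to mitochondrial-genome counts -6.92 and -6.47. LV minus SM stayed called in sedentary rats (-0.87 to -0.61) and not called in trained rats (-0.30 to -0.09). The SM training change stayed negative and not called, from -0.63 to -0.16, and from -0.49 to -0.37 with each library left out. On the level scale it passed after adjustment over the 3 tissues in rats 17 to 32 (-1646, permutation adjusted p = 0.0294) and without trained rat 6, with leave-one-out values from -1064 to -732. The adjustment made no allowance for the choice of range or of library left out. The MT training change turned negative on library totals alone (-0.25) and in rats 2 to 16 (-0.60), and ran from -0.30 to 0.56 with each library left out. On the level scale it was -0.0769 as log2, -43.5 in rats 2 to 16, and -25.4 to 40.9 with each library left out. The MT minus SM training effect was -0.41 in rats 2 to 16. The difference between rat ranges in the MT training effect ran from 0.17 to 1.20. The LV training change ran from -0.150 to 0.0417 with each library left out. Relations changed sign for the receptor genes in rats 2 to 16 (-0.31) and for LV against SM in ExT (-0.44) and in rats 17 to 32 (-0.0217). In none of these was the cause tested. Calls over all genes moved by more than 1.5 times in SM training (28, against 118 with DESeq2, 396 in rats 2 to 16 and 1 in rats 17 to 32), in MT minus SM when thinned (21648 to 3987 and 20092 to 2017), in the training effects MT minus SM (5, against 0 on library totals, 33 with DESeq2, 3 with the block, 20 in rats 2 to 16 and 1 in rats 17 to 32) and LV minus SM (0, against 3 with DESeq2), and in the SM range difference (0, against 54 with DESeq2). Depth limits MT, where Rpph1 has 8 to 415 counts a library.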
